A study of Danio rerio with 12 samples.

Results

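The membrane-bound (MB) fraction of *chchd4a*-/- mutant zebrafish larvae was compared with the MB fraction of wild-type (WT) larvae, which used 6 of the 12 libraries: mutant MB libraries 1 to 3 and WT MB libraries 1 to 3, chosen by the genotype and fraction in their labels. The mutants were 5 dpf (days post fertilization) *chchd4a*-/- larvae, called mia40a mutants in the labels, from crosses of heterozygous parents, and were picked out a day earlier under a fluorescence microscope by the abnormal shape of their GFP-marked mitochondria. The WT larvae were 5 dpf offspring of *chchd4a*+/+ siblings. Both genotypes had the AB strain label and carried the homozygous transgene Tg(Xla.Eef1a1:mlsEGFP)cms1, which puts GFP into mitochondria, and each fractionation pooled whole larvae of many tissues. The MB fraction was the pellet spun from a nucleus-free homogenate at moderate speed, and the other 6 libraries held the high-speed (HS) pellet of the remaining supernatant, 3 mutant and 3 WT. Mutant and WT larvae came from different crosses, so genotype and clutch cannot be told apart.

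*chchd4a* encodes Mia40, the oxidoreductase of the intermembrane space (IMS) of mitochondria. Mia40 traps small cysteine-rich proteins as they enter the IMS and forms disulfide bonds in them, and the sulfhydryl oxidase Gfer (Erv1 in yeast) takes over the electrons. Its known substrates include respiratory chain assembly factors, subunits of complexes I, III and IV and the small TIM chaperones. RNA in an MB pellet is the RNA inside mitochondria together with mRNA bound, mostly by its translating ribosomes, to mitochondria, the endoplasmic reticulum (ER) and other membranes, so a level in MB depends on how much of an mRNA the larva makes and on how much of it is membrane-bound.

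The MB libraries held 45621399, 90799590 and 86825837 gene counts in mutants 1 to 3, and 96059775, 89521562 and 86554591 in WT 1 to 3. Of 31778 genes, 23452 had more than 50 counts in each genotype's 6 libraries together and were tested. RNA of the 13 mRNA genes of mitochondrial DNA (mtDNA) marked the fraction, taking 5.01% to 9.46% of mutant and 11.7% to 17.7% of WT gene counts in MB, but 1.19% to 1.87% of mutant and 1.48% to 1.72% of WT gene counts in HS. Markers of the 12 tissues looked for (muscle, exocrine and endocrine pancreas, liver, gut, epidermis, erythrocytes, neurons, photoreceptors, lens, cartilage and immune cells) were found in every MB library. No tested marker gene was at 0, which the filter on counts had made likely. Of the markers looked for, 7 of 8 for muscle and 4 of 5 for erythrocytes were matched to genes, and all for the other tissues. Libraries stood apart in both groups. WT library 1 correlated with WT libraries 2 and 3 at 0.976 and 0.980 (log2 CPM over 22434 genes), while those shared 0.996, and it gave the largest share of mtDNA and of spike-in reads. Mutant library 3 correlated at 0.988 and 0.986 with WT libraries 2 and 3, and at 0.985 and 0.982 with mutant libraries 1 and 2. Where leaving out 1 library moved a list's median by more than 1.5 times, the median without that library stands beside it. Added spike-in RNA took 2.62%, 1.77% and 2.68% of all counts in mutants and 7.22%, 2.88% and 3.50% in WT (exact permutation test, two-sided, p = 0.1, the smallest that 3 against 3 allow).

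Few genes passed the test. With edgeR's quasi-likelihood test on the 6 MB libraries and Benjamini-Hochberg adjustment, 27 genes (0.115% of those tested) were higher in mutants and 46 (0.196%) were lower at an adjusted p of at most 0.05, of which 22 (0.0938%) and 41 (0.175%) changed at least 2-fold. In these 73 genes (0.311%) no mutant library overlapped any WT library. Log2 fold changes of the higher genes ran between 0.72 and 4.05 (median 1.28), and those of the lower genes between -6.90 and -0.92 (median -1.53). The -6.90 was that of *htra2-5*, a gene near the floor with 0.0438, 0 and 0 CPM in mutants against 0.774, 1.04 and 1.64 CPM in WT. The next lowest value was -3.74. The median over all tested genes was 0.01, with quartiles at -0.26 and 0.24, and 77.9% of genes lay within 0.5 of 0. Unadjusted p was under 0.05 in 2594 higher genes (11.1%) and 2561 lower ones (10.9%). Every mutant library lay above every WT library in 3731 genes (15.9%) and below in 3240 (13.8%). DESeq2 on the same counts called 1059 genes higher (4.52%) and 1315 lower (5.61%), all 73 among them.

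With 3 libraries a group, the calls depended on single libraries. Without WT library 1 there were 41 higher and 106 lower genes, without WT library 2 there were 7 and 29, and without WT library 3 none (3822 genes at an unadjusted p under 0.05). Without mutant library 1 only *cnga3b*, without mutant library 2 only *ctsll* and *ogfr2*, and without mutant library 3 as many as 286 higher (1.22%) and 197 lower genes (0.84%) were called. The 73 genes had the same sign in each of these fits. Their lack of overlap between genotypes made this likely, so it does not test the calls. Scaling moved the balance: library totals in place of TMM (trimmed mean of M values) factors gave 863 higher and 194 lower genes (81.7% of calls higher) and spike-in totals 113 and 3 (97.4%), where 37.0% of calls were higher with TMM. The all-gene median moved up by 0.30 and 1.08 under these scalings. Relative to that shift all 73 genes kept their sign. Removing the shift largely undoes a change of scaling, so the kept signs do not test the scaling. Before the shift, 6 of the 46 lower genes were above 0 with spike-in totals. P-values here measure the spread between these libraries only, since the labels do not say what makes them separate samples. In the gene lists described next, the called genes (up to 4 in each direction) and, where none was called, the gene with the smallest p were named by rule, and the other examples were chosen after their values were seen. Counts of list genes without overlap stand beside the shares over all genes. These were 15.9% above and 13.8% below in MB, and 16.3% and 17.1% in HS.

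*chchd4a* RNA itself was not lower in the mutants. It measured 8.54, 9.85 and 10.3 CPM in the mutant libraries, against 5.55, 6.58 and 6.80 CPM in the WT libraries (log2 fold change 0.60, SE 0.15, adjusted p = 0.0881), and its paralogue *chchd4b* measured 3.26, 4.49 and 3.41 CPM in the mutant libraries, against 1.57, 2.28 and 2.43 CPM in the WT libraries (log2 fold change 0.83, SE 0.23, adjusted p = 0.0981). In both genes every mutant library was above every WT library, short of the threshold, so the amount of this transcript does not check the genotype labels. Of the other genes tied to the pathway, *GFER*, the oxidase that recharges Mia40, had 25, 14.5 and 10.9 CPM in mutants against 10.7, 10.3 and 9.49 CPM in WT (log2 fold change 0.72, SE 0.28, adjusted p = 0.180), with mutant library 1 far above the other mutants. *AIFM1*, which in mammals binds the human Mia40 protein and aids its import, overlapped between genotypes at 54.1, 58.0 and 71.9 CPM in mutants against 42.2, 57.1 and 57.0 CPM in WT. The flavoprotein gene *AIFM2* is in the list as a relative of *AIFM1*, and the sources used here give it no role in this pathway. It did not overlap, at 44.7, 42.2 and 46.2 CPM in mutants against 20.1, 28.9 and 27.2 CPM in WT (log2 fold change 0.81, SE 0.15, adjusted p = 0.0629). At an unadjusted p under 0.05, 4 of these 5 genes were higher, *AIFM2* with the smallest p among them, and 0 lower. None of the 5 was called with edgeR, and DESeq2 called 3 higher and 0 lower. The median log2 fold change of all 5, *AIFM2* included, was 0.72, between 0.66 and 0.77 when single libraries were left out.

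None of 35 genes of Mia40 substrates was called with edgeR, 7 had an unadjusted p under 0.05, all higher, and DESeq2 called 1 higher. In 16 of them every mutant library exceeded every WT library, and in 1, *CCS*, the copper chaperone of Sod1, every mutant library was below. *cox17*, the copper chaperone that supplies cytochrome c oxidase, had the smallest p, with 44.4, 49.1 and 43.1 CPM in the mutant libraries, against 28.5, 30.2 and 27.7 CPM in the WT libraries (log2 fold change 0.66, SE 0.11, adjusted p = 0.0563). The complex I subunit gene *NDUFS5* had 66.8, 73.7 and 69.2 CPM in mutants against 56.8, 56.9 and 52.9 CPM in WT (log2 fold change 0.33), and *chchd10*, a twin-CHCH protein of the IMS, had 46.3, 50.9 and 45.3 CPM in mutants against 24.2, 36.8 and 35.3 CPM in WT (0.56). Of the small TIM chaperone genes, *TIMM13* lay at 0.30 on the log2 scale, while *TIMM8A* lay at -0.01, *TIMM9* at -0.07 and *TIMM10* at -0.18. The list's median was 0.19 in MB and 0.64 in HS, where 12 genes had every mutant library above WT and 2 below. Of all genes in HS, 16.3% lay above and 17.1% below.

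Among the called genes that were higher in mutants and that met the naming criteria (at least 2-fold, over 1000 MB counts, a symbol and no overlap), *ctsll* (ENSDARG00000011701), a relative of the lysosomal protease cathepsin L, changed most. It had 28.0, 9.85 and 25.2 CPM in the mutant libraries, against 1.05, 1.06 and 1.70 CPM in the WT libraries (log2 fold change 4.05, SE 0.42, adjusted p = 0.0206), a 16.5-fold difference. Mutant library 2 had the least of the 3 mutants and still lay several times above each WT library. *prxl2b* (ENSDARG00000029795), whose mammalian counterpart makes prostaglandin F compounds, had 29.0, 30.3 and 35.4 CPM in the mutant libraries, against 6.0, 7.46 and 9.14 CPM in the WT libraries (log2 fold change 2.07, SE 0.18, adjusted p = 0.0206). *bco1l* (ENSDARG00000103659), of the carotenoid-cleaving oxygenases, had 24.4, 21.6 and 31.5 CPM in the mutant libraries, against 4.44, 8.53 and 8.89 CPM in the WT libraries (log2 fold change 1.82, SE 0.27, adjusted p = 0.0472). In both genes the mutants lay close together and WT library 1 was lowest.

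*cry3b* (ENSDARG00000091131), a cryptochrome of the light-entrained circadian clock, was level across the mutants at 10.3, 10.4 and 9.20 CPM, against 1.99, 2.69 and 3.50 CPM in WT (log2 fold change 1.87, SE 0.22, adjusted p = 0.0239). *cpdp*, the photolyase of the same protein family that repairs ultraviolet damage in DNA by light, had 43.8, 41.3 and 41.8 CPM in the mutant libraries, against 16, 19.2 and 20.9 CPM in the WT libraries (log2 fold change 1.18, SE 0.13, adjusted p = 0.0206). *cpdp* was called but is named here after its values were seen, as were *pygl* and *ogfr2* below. *pygl*, liver glycogen phosphorylase, had 132, 132 and 126 CPM in the mutant libraries, against 52.3, 65.7 and 55.2 CPM in the WT libraries (log2 fold change 1.17, SE 0.13, adjusted p = 0.0206), the 3 libraries of each genotype within a narrow range. *ogfr2*, related to the opioid growth factor receptor, had the smallest adjusted p of all genes, with 3.09, 2.88 and 3.01 CPM in the mutant libraries, against 0.413, 0.319 and 0.335 CPM in the WT libraries (log2 fold change 3.07, SE 0.21, adjusted p = 0.00721).

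*ces2b* (ENSDARG00000101726), a carboxylesterase, had 54.1, 76.6 and 77.3 CPM in the mutant libraries, against 18.4, 26.0 and 28.1 CPM in the WT libraries (log2 fold change 1.52, SE 0.21, adjusted p = 0.0376). *tpmt.2*, a thiopurine methyltransferase, had 6.13, 6.24 and 7.27 CPM in the mutant libraries, against 2.27, 2.15 and 2.44 CPM in the WT libraries (log2 fold change 1.52, SE 0.16, adjusted p = 0.0206). *pcyt1bb*, of the rate-limiting step of phosphatidylcholine synthesis, had 19.1, 18 and 18.8 CPM in the mutant libraries, against 5.64, 8.0 and 8.67 CPM in the WT libraries (log2 fold change 1.32, SE 0.18, adjusted p = 0.0366). All WT libraries were below all mutant libraries in each, which the naming criteria required. *ABCB6* (ENSDARG00000063297), an ABC transporter linked to porphyrins, had 2.71, 4.6 and 2.60 CPM in the mutant libraries, against 0.942, 0.878 and 1.03 CPM in the WT libraries (log2 fold change 1.80, SE 0.27, adjusted p = 0.0457), highest in mutant library 2. *SQSTM1* (ENSDARG00000075014), the selective autophagy receptor p62, had 138, 113 and 83.4 CPM in the mutant libraries, against 40.5, 49.2 and 48.1 CPM in the WT libraries (log2 fold change 1.28, SE 0.19, adjusted p = 0.0486), so that mutant library 3 was the closest to WT. The remaining genes by this rule were *si:dkeyp-27c8.2* (1.64), *si:ch1073-390k14.1* (1.49) and *vwa11* (1.36) on the log2 scale, all without overlap. Transcription factor genes were called with smaller changes and, named after their values were seen, were *nfe2l2b*, a paralogue of Nrf2 (0.95, adjusted p = 0.0437), *pparg* (0.85, adjusted p = 0.0457) and *CEBPA* (0.72, adjusted p = 0.0421), regulators of lipid storage and liver genes. *CEBPA* had 48.2, 47.4 and 46.7 CPM in the mutant libraries, against 28.7, 29.0 and 28.6 CPM in the WT libraries, the tightest of these.

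Of the 46 genes called lower, those named by the rule are given next. Counts of bulk larvae cannot tell fewer cells of a type from less RNA per cell, here and for the tissue genes below. *cbln8* (ENSDARG00000019294), of the secreted cerebellin family, changed most among those meeting the criteria, with 1.44, 1.34 and 2.31 CPM in the mutant libraries, against 9.29, 14.5 and 10.6 CPM in the WT libraries (log2 fold change -2.75, SE 0.27, adjusted p = 0.0206), a 6.71-fold lower level. *shisa9b* (ENSDARG00000052642), from a family of AMPA receptor partners, had 0.569, 0.395 and 0.795 CPM in the mutant libraries, against 5.80, 2.69 and 2.95 CPM in the WT libraries (log2 fold change -2.70, SE 0.39, adjusted p = 0.0421), WT library 1 being the highest. All mutant libraries of both genes were well below all WT libraries.

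Both called members of the synaptic list were also lower. *SLC32A1* (ENSDARG00000059775), which loads the inhibitory transmitter GABA into synaptic vesicles, had 81.5, 63.2 and 93.1 CPM in the mutant libraries, against 193, 197 and 199 CPM in the WT libraries (log2 fold change -1.31, SE 0.16, adjusted p = 0.0310). *sv2a* (ENSDARG00000059945), a synaptic vesicle glycoprotein, had 147, 119 and 151 CPM in the mutant libraries, against 390.2, 383 and 384 CPM in the WT libraries (log2 fold change -1.47, SE 0.15, adjusted p = 0.0206). WT libraries were nearly equal for both genes and the mutants lay together below them. The cone photoreceptor channel subunit genes *cnga3b* (ENSDARG00000012297) and *CNGA3* (ENSDARG00000070726) had 6.70, 3.9 and 3.50 CPM in the mutant libraries, against 20.5, 18.2 and 21.1 CPM in the WT libraries (log2 fold change -2.10, SE 0.25, adjusted p = 0.0239) and 11.9, 6.30 and 14.7 CPM in the mutant libraries, against 46.9, 39.0 and 39.8 CPM in the WT libraries (log2 fold change -1.93, SE 0.28, adjusted p = 0.0437). These are paralogues, and reads shared between them could be split either way. Further called genes, named after their values were seen, were *BDNF*, a neurotrophin (-1.09), *vgf*, a neuropeptide precursor (-1.50), *cacng8b*, of the AMPA receptor auxiliary proteins (-0.97), *KCND3*, a potassium channel (-1.39), *syt5a*, a synaptotagmin (-1.12), *sema7a*, a semaphorin (-1.56), and *gpr179*, needed in retinal ON bipolar cells (-1.74). *BDNF* had 19.9, 17.4 and 17.4 CPM in the mutant libraries, against 39.9, 39.5 and 37.1 CPM in the WT libraries (adjusted p = 0.0206). Its WT values were about alike, as were its mutant values. As a set, the 7 tested genes of the neuron markers had a median of -0.15 and none called, 1 above and 2 below without overlap. Their summed CPM overlapped, at 1347, 1337 and 1410 in mutants against 1212, 1443 and 1291 in WT.

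*bbx* (ENSDARG00000012699), an HMG-box factor, had 5.38, 3.44 and 5.29 CPM in the mutant libraries, against 35.8, 17.8 and 19.4 CPM in the WT libraries (log2 fold change -2.37, SE 0.31, adjusted p = 0.0332), with WT library 1 above the other WT libraries. *CCDC85C* (ENSDARG00000005232) had 7.09, 7.09 and 5.64 CPM in the mutant libraries, against 26.1, 21.9 and 19.3 CPM in the WT libraries (log2 fold change -1.76, SE 0.17, adjusted p = 0.0206), and *fam169aa* had 7.62, 6.16 and 9.83 CPM in the mutant libraries, against 34.6, 29.1 and 25.6 CPM in the WT libraries (log2 fold change -1.92, SE 0.20, adjusted p = 0.0206). Neither genotype overlapped the other, which the naming criteria required. *si:dkeyp-73d8.9* (-1.98), *si:dkey-287i17.5* (-1.87) and *si:ch73-359m17.7* (-1.73) were also lower by this rule, beside *mt-nd6* below. The called feature with the largest share of counts was ENSDARG00000080337, without a symbol in the tables used here, which took 0.577%, 0.435% and 0.683% of gene counts in mutants and 8.05%, 5.60% and 4.53% in WT (log2 fold change -3.74, SE 0.47, adjusted p = 0.0310). In HS its share was 0.465%, 0.846% and 1.82% in mutants and 18.3%, 8.49% and 6.38% in WT. None of these calls passed without WT library 3, as stated above for all 73 genes.

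**Figure D1:**
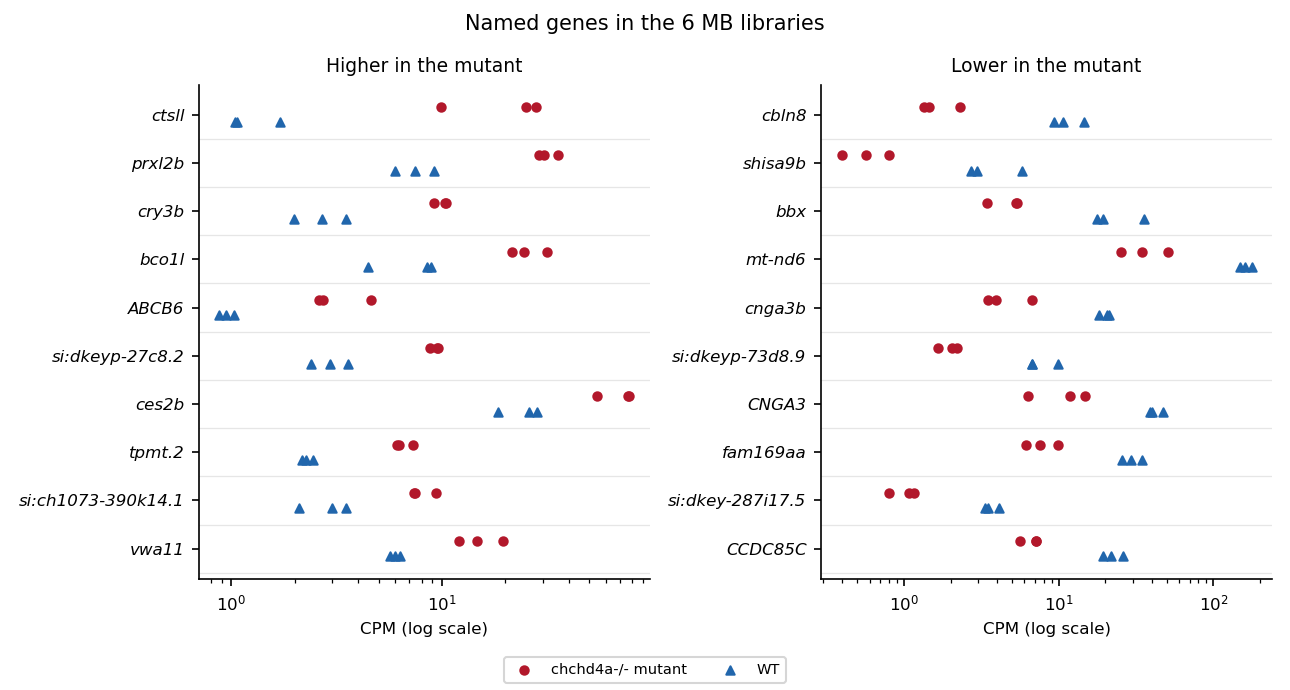
CPM (log scale) of the 10 called genes with the largest rise and the 10 with the largest fall by the naming rule, mutant above WT, in the 3 mutant and the 3 WT MB libraries; each point is 1 library. For *ctsll* mutants sit at 28.0, 9.85 and 25.2 CPM and WT at 1.05, 1.06 and 1.70 CPM. The naming rule took only genes without overlap between genotypes.

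RNA of mtDNA lay lower in all 3 mutant libraries, although 1 of the 13 mRNA genes passed the test. These genes code for subunits of complexes I, III, IV and V and are transcribed inside mitochondria. The 13 genes together took 9.46%, 5.01% and 6.03% of gene counts in mutant libraries (mean 6.84% ± 2.33, SD, n = 3), against 17.7%, 11.7% and 14.1% in WT libraries (14.5% ± 2.99, SD, n = 3; exact permutation test, two-sided, p = 0.1, the smallest possible). The highest mutant library lay below the lowest WT library. The difference was -7.68 percentage points, and between -9.07 and -6.11 when single libraries were left out. All 13 genes had every mutant library below every WT library, and each had an unadjusted p under 0.05, but *mt-nd6* alone passed the adjusted threshold with edgeR; DESeq2 called all 13. Their median log2 fold change was -1.47, or -1.22 without WT library 1 and -1.40 without mutant library 3. Set against the mean WT library, the medians by library were -0.89, -1.97 and -1.54 in mutant libraries 1 to 3, against 0.44, -0.39 and -0.03 in WT libraries 1 to 3. Mutant library 2 was lowest and WT library 1 highest in this measure.

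*mt-nd6* (ENSDARG00000063922) had 51.0, 25.1 and 34.5 CPM in the mutant libraries, against 176, 149 and 159 CPM in the WT libraries (log2 fold change -2.13, SE 0.25, adjusted p = 0.0238), and its WT libraries were closer to each other than for the other genes. ND6 is the protein-coding gene on the other strand of vertebrate mtDNA, and the libraries were stranded, but the strand setting of the counting is not given in the sources used here. *mt-co1*, of complex IV, had 34592, 14542 and 17619 CPM in the mutant libraries, against 72880.1, 39327 and 47039.6 CPM in the WT libraries (log2 fold change -1.25, SE 0.47, adjusted p = 0.173). *mt-nd3* had 519, 219 and 319.6 CPM in the mutant libraries, against 1594, 868 and 1144 CPM in the WT libraries (log2 fold change -1.77, SE 0.35, adjusted p = 0.0657), and *mt-cyb* of complex III had 12304, 5514 and 6958 CPM in the mutant libraries, against 26608, 15237 and 19341 CPM in the WT libraries (log2 fold change -1.30, SE 0.40, adjusted p = 0.122). In each, mutant library 1 lay nearest to WT. A further called feature, ENSDARG00000080128, which the names used here tie to the mitochondrial sequence record and not to a gene symbol, had 0.35, 0.285 and 0.194 CPM in mutants and 1.61, 1.4 and 1.65 CPM in WT (log2 fold change -2.53, SE 0.27, adjusted p = 0.0206 with edgeR), the genotypes lying well apart. Its log2 fold change in HS was -0.38. In HS, where mtDNA genes took 1.19%, 1.87% and 1.23% of gene counts in mutants and 1.72%, 1.48% and 1.66% in WT (exact permutation p = 0.4), the median log2 fold change was -0.19. The interaction of genotype and fraction had a median of -1.34 over the 13 genes, with 10 at an unadjusted p under 0.05 (of all genes 6.01% were below 0 and 8.37% above 0 at that p) and none past the adjusted threshold; for *mt-nd6* the interaction was -1.34 (SE 0.40, adjusted p = 0.196). The interaction fit took MB and HS libraries as independent, although both pellets came from the same homogenates. With spike-in totals in place of TMM and before any shift, the median of the mtDNA genes was -0.32.

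**Figure D2:**
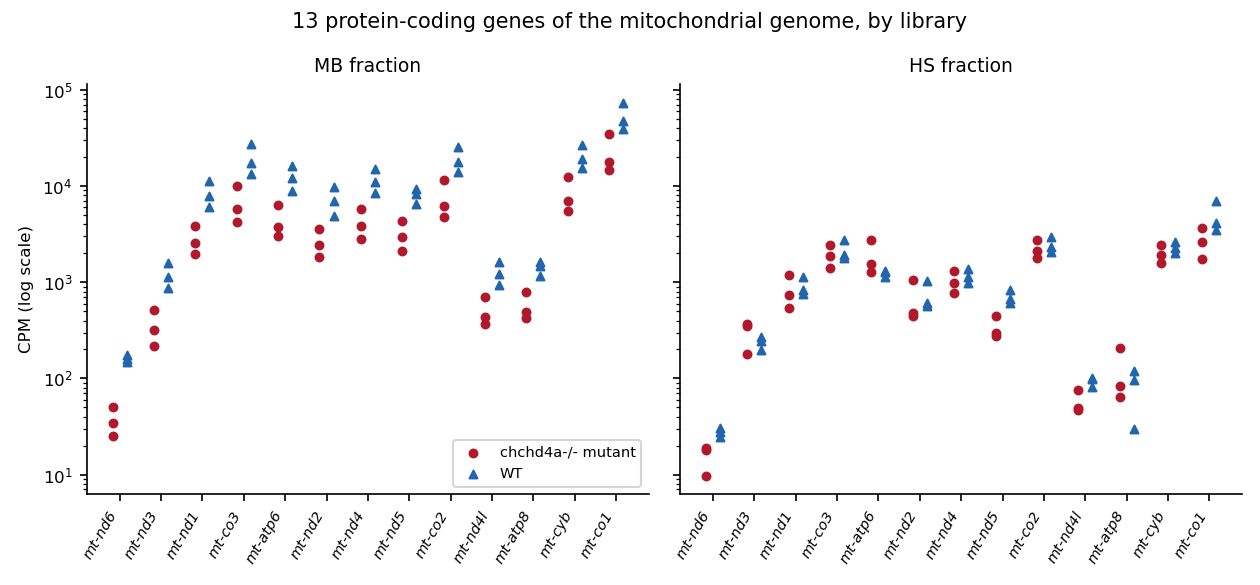
CPM (log scale) of the 13 mtDNA mRNA genes in MB and HS, 1 point a library, mutant left of WT for each gene. In MB all mutant libraries lie below all WT libraries for each gene, for example *mt-co1* at 34592, 14542 and 17619 against 72880.1, 39327 and 47039.6 CPM, while in HS 10 of the 13 genes overlap.

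The digestive enzyme genes of the exocrine pancreas had the lowest median of the gene lists. Acinar cells make these proteases, lipases and amylases on ER-bound ribosomes. Of 33 genes, 33 had a log2 fold change below 0, 30 had every mutant library below every WT library, and 31 had an unadjusted p under 0.05. 1 was called with edgeR, *sycn.1*, and 29 with DESeq2. Their median was -1.53, or -1.25 without WT library 1 and -1.71 without mutant library 3, and by library -1.26, -1.96 and -1.24 in mutant libraries 1 to 3, against 0.54, -0.68 and 0.14 in WT libraries 1 to 3. The WT libraries thus spread more than the mutants, but WT library 2, the lowest, was still above each mutant. The share of gene counts was 0.768%, 0.525% and 0.823% in mutants and 2.15%, 1.07% and 1.81% in WT.

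*sycn.1* (ENSDARG00000090469), a syncollin of zymogen granules, was low in all libraries, with 0.35, 0.248 and 0.448 CPM in the mutant libraries, against 2.90, 1.54 and 2.38 CPM in the WT libraries (log2 fold change -2.70, SE 0.33, adjusted p = 0.0285). *prss1*, a trypsinogen, had 894, 479 and 841 CPM in the mutant libraries, against 3993, 1303 and 2351 CPM in the WT libraries (log2 fold change -1.79, SE 0.42, adjusted p = 0.0773). *amy2a*, an amylase, had 172, 97.1 and 146 CPM in the mutant libraries, against 818, 298 and 552 CPM in the WT libraries (log2 fold change -2.01, SE 0.37, adjusted p = 0.0611). In both, WT library 2 was the nearest to the mutants. *ela2l*, an elastase, had 350.2, 179 and 367 CPM in the mutant libraries, against 1675, 517 and 993 CPM in the WT libraries (log2 fold change -1.83, SE 0.44, adjusted p = 0.0797), *cpa5*, a carboxypeptidase, had 649, 391 and 555 CPM in the mutant libraries, against 1849, 868 and 1392 CPM in the WT libraries (log2 fold change -1.37, SE 0.31, adjusted p = 0.0747), and the bile salt-activated lipase gene *cel.1* had 73.0, 44.3 and 61.0 CPM in the mutant libraries, against 249.7, 110.5 and 186 CPM in the WT libraries (log2 fold change -1.62, SE 0.30, adjusted p = 0.0625). None of these overlapped. The genes that did overlap were *cela1.4* (-0.52), the amylase copy *amy2al1* (-0.08) and *ptf1a*, the transcription factor that specifies acinar cells, with 1.09, 1.25 and 1.96 CPM in mutants against 1.56, 1.62 and 1.95 CPM in WT (log2 fold change -0.24, SE 0.26, adjusted p = 0.616). Many of these genes are close copies, so reads may be split between members of the elastase, trypsin and amylase families. Of the 22 peptide hormone genes of islets and pituitary none was called with edgeR, 3 were higher and 4 lower at an unadjusted p under 0.05, and DESeq2 called 2 and 3. The median was -0.29 (-0.47 without WT library 1 and -0.09 without WT library 3). The lowest log2 fold change of the list was that of *insb*, -1.56, an insulin gene other than *ins*, which is among the endocrine markers below. The somatostatin gene *sst1.1* had -0.80. By contrast, *adm2a*, of the adrenomedullin family, lay above WT with 1.69, 2.57 and 1.49 CPM in mutants against 0.439, 0.707 and 0.657 CPM in WT (log2 fold change 1.67, SE 0.30, adjusted p = 0.0571). As a set, the 3 tested genes of the endocrine pancreas markers had a median of -0.51 and none called, 0 above and 1 below without overlap. Their summed CPM overlapped, at 50.6, 30.2 and 44.6 in mutants against 49.2, 51.8 and 73.9 in WT. In HS the exocrine genes had a median of -0.32, with 7 genes below WT in every mutant library (17.1% of all genes). The median interaction, from the same fit of libraries as independent, was -1.28. In 20 genes it lay below 0 at an unadjusted p under 0.05, as in 6.01% of all genes.

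**Figure D3:**
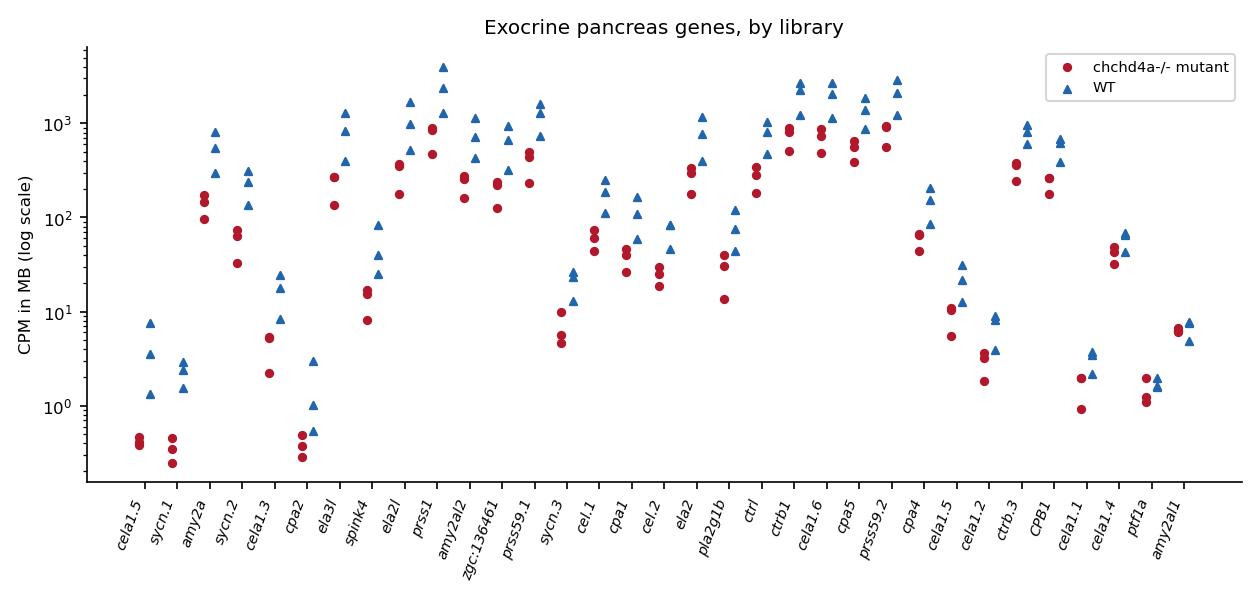
CPM in MB (log scale) of the exocrine pancreas genes, ordered along the axis, 1 point a library, mutant left of WT. Mutant libraries lie below WT libraries in 30 of the 33 genes; *prss1* shows 894, 479 and 841 against 3993, 1303 and 2351 CPM.

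Most genes of secreted liver proteins lay lower, by less than the exocrine genes. The list's share of gene counts overlapped, at 0.809%, 0.959% and 0.759% in mutants against 0.611%, 0.795% and 0.809% in WT. The 5 tested genes of the liver markers had a median of -0.06 and none called, 0 above and 1 below without overlap. Of 57 genes of plasma proteins, 45 were below 0 and 12 above. At an unadjusted p under 0.05, 17 were lower and 2 higher, and DESeq2 called 16 lower and 1 higher. With edgeR 2 were called, both lower. *c9*, the terminal complement component, had 86.7, 107 and 105 CPM in the mutant libraries, against 194, 209 and 185 CPM in the WT libraries (log2 fold change -0.98, SE 0.14, adjusted p = 0.0421). *serpina7*, the thyroxine-binding globulin, had 7.49, 7.51 and 11.1 CPM in the mutant libraries, against 19.7, 20.8 and 22 CPM in the WT libraries (log2 fold change -1.26, SE 0.18, adjusted p = 0.0421). Neither overlapped. In 17 of the genes (29.8%, against 13.8% of all genes) every mutant library was below every WT library, and in 0 every one was above. The list's median was -0.19 (-0.34 without WT library 1) in MB and 0.21 in HS. The C-reactive protein gene *crp2* (ENSDARG00000056498) had 150.3, 98.1 and 156 CPM in the mutant libraries, against 381, 268 and 326 CPM in the WT libraries (log2 fold change -1.27, SE 0.22, adjusted p = 0.0571), and *apoda.2*, of the apolipoprotein D family, had 155, 75.7 and 162 CPM in the mutant libraries, against 685, 339.5 and 575 CPM in the WT libraries (log2 fold change -2.03, SE 0.35, adjusted p = 0.0571). The apolipoprotein list as a whole had a median of 0.04 (-0.07 to 0.15 without single libraries, on the other side of 0 without WT library 1 or mutant library 1), which also changed sign with spike-in totals. In the gut, the chitinase gene *chia.6* was called lower, with 11.2, 8.97 and 9.96 CPM in the mutant libraries, against 17.8, 19.4 and 21.2 CPM in the WT libraries (log2 fold change -0.96, SE 0.14, adjusted p = 0.0437). The brush border list around it had 9 genes above and 5 below without overlap. These were 23.1% and 12.8% of the list, against 15.9% and 13.8% of all genes. The list had a median of 0.07 (-0.19 to 0.19 without single libraries, on the other side of 0 without WT library 1 or mutant library 3), and *VIL1*, the villin of microvilli, had 349.7, 363 and 438 CPM in mutants against 133, 244 and 235 CPM in WT (log2 fold change 0.91, SE 0.24, adjusted p = 0.0943).

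Of 43 genes of ER targeting and translocation, 32 were below 0 and 10 did not overlap on that side (23.3%, against 13.8% of all genes). None was called with edgeR, 3 were higher and 10 lower at an unadjusted p under 0.05, and DESeq2 called 1 higher and 6 lower. The median was -0.27, or -0.35 without WT library 1 and -0.38 without mutant library 3, and -0.16 without mutant library 2. *SRPRA*, the receptor of the signal recognition particle, had 68.4, 55.5 and 66.7 CPM in the mutant libraries, against 96.9, 86.9 and 89.0 CPM in the WT libraries (log2 fold change -0.52, SE 0.13, adjusted p = 0.0857). *sec62*, of the translocon, had 95.6, 68.3 and 78.3 CPM in mutants against 139, 118 and 112 CPM in WT (-0.61), and *SRP54*, a soluble subunit of the particle, lay the other way with 118, 113 and 107 CPM in mutants against 74.8, 90.9 and 84.2 CPM in WT (0.43). Of 40 ER chaperone and disulfide isomerase genes 8 lay below and 5 above without overlap. These counts, 20% and 12.5% of the list, were near the shares over all genes (13.8% and 15.9%). The median was -0.19 (-0.09 without WT library 3 and -0.10 without mutant library 2), with none called by edgeR, 1 higher and 6 lower at an unadjusted p under 0.05, and 1 and 4 called by DESeq2. The calcium-binding chaperone gene *CALR* had 87.7, 67.4 and 134 CPM in the mutant libraries, against 222, 158 and 162 CPM in the WT libraries (log2 fold change -0.90, SE 0.26, adjusted p = 0.109), mutant library 3 being nearest to WT, and *dnajb9b*, an ER stress target, had 3.59, 3.16 and 2.84 CPM in the mutant libraries, against 1.29, 1.74 and 1.70 CPM in the WT libraries (log2 fold change 1.01, SE 0.20, adjusted p = 0.0648). With mutant library 3 left out, *CALR* and *hyou1* were called lower (adjusted p = 0.0495 and 0.0479). Leaving out a library nearer to WT makes such calls likely, so they are no separate test.

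Genes of the integrated stress response (ISR), the programme that Atf4 runs when translation initiation is curbed, stood above WT mainly in mutant libraries 1 and 2. None of 31 was called with edgeR, with 14 higher and 4 lower at an unadjusted p under 0.05 and 9 higher and 3 lower with DESeq2. Medians by library were 0.75, 0.44 and 0.00 in mutant libraries 1 to 3, against -0.03, 0.03 and 0.02 in WT libraries 1 to 3, and the median log2 fold change was 0.38 (0.25 without mutant library 1 and 0.70 without mutant library 3). In 8 genes all mutants exceeded all WT libraries, and in 11 more only mutants 1 and 2 did, a pattern that 7.12% of all genes had. *CEBPB* had 147, 129 and 40.0 CPM in the mutant libraries, against 32.5, 36.7 and 39.0 CPM in the WT libraries (log2 fold change 1.55, SE 0.41, adjusted p = 0.0933). *atf3*, a stress-induced factor, had 21.1, 22.8 and 5.36 CPM in the mutant libraries, against 4.85, 7.06 and 6.57 CPM in the WT libraries (log2 fold change 1.41, SE 0.47, adjusted p = 0.140). *ppp1r15a* (GADD34), which restores translation, had 116, 77.2 and 37.1 CPM in the mutant libraries, against 38.5, 37.3 and 35.4 CPM in the WT libraries (log2 fold change 1.05, SE 0.34, adjusted p = 0.138). In these 3 genes mutants 1 and 2 were far above WT and mutant 3 lay within the WT range or, for *CEBPB*, just above it.

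Other members did not follow that split. *asns*, asparagine synthetase, had 27.8, 32.9 and 32.3 CPM in the mutant libraries, against 15.3, 19.8 and 16.8 CPM in the WT libraries (log2 fold change 0.84, SE 0.14, adjusted p = 0.0535), and *sesn2* had 8.52, 8.29 and 6.50 CPM in the mutant libraries, against 3.37, 4.24 and 4.06 CPM in the WT libraries (log2 fold change 1.00, SE 0.18, adjusted p = 0.0571). *slc7a11*, the cystine importer, lay lower with 59.5, 34.3 and 66.2 CPM in the mutant libraries, against 123, 106 and 95.2 CPM in the WT libraries (log2 fold change -1.02, SE 0.24, adjusted p = 0.0773). None of these overlapped, and for *asns* mutant library 3 was no nearer to WT than the other mutants. Without mutant library 3, 9 genes of the list were called, all higher, among them *CEBPB* (1.93, adjusted p = 0.0187), *TRIB3* (1.09, adjusted p = 0.0287) and *CHAC1* (0.89, adjusted p = 0.0446). The library left out was the one already seen to lie near WT, so these calls follow from that split and do not test it. No gene of the list was called without mutant library 1 or without mutant library 2.

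Immediate early genes had the same split. Of 36 early response genes 1 was called, *GADD45B* (ENSDARG00000027744), a stress-induced growth arrest gene, with 58.2, 56.2 and 47.5 CPM in the mutant libraries, against 30.6, 28.1 and 28.7 CPM in the WT libraries (log2 fold change 0.89, SE 0.12, adjusted p = 0.0406). In 9 genes every mutant library was above WT, and in 12 only mutants 1 and 2 were. Medians by library were 0.51, 1.03 and 0.04 in mutant libraries 1 to 3, against 0.06, -0.02 and -0.07 in WT libraries 1 to 3, and the median log2 fold change was 0.61 (0.36 without mutant library 2). *fosl1a*, an AP-1 subunit, had 33.5, 26.2 and 2.68 CPM in the mutant libraries, against 2.10, 5.34 and 3.94 CPM in the WT libraries (log2 fold change 2.45, SE 0.77, adjusted p = 0.127), and *FOS* had 24.4, 54.4 and 27.1 CPM in the mutant libraries, against 13.8, 10.5 and 8.19 CPM in the WT libraries (log2 fold change 1.71, SE 0.33, adjusted p = 0.0631). *SOCS3* (ENSDARG00000025428), a brake on cytokine signals, had 44.7, 50.5 and 17.8 CPM in the mutant libraries, against 10.6, 13.7 and 12 CPM in the WT libraries (log2 fold change 1.63, SE 0.35, adjusted p = 0.0678). Mutant 2 was the highest for *FOS*, while mutant 3 was at or near WT for *fosl1a* and *SOCS3*. Without mutant library 3, 9 of these genes were called higher, *atf3* being in both lists. These calls too follow from leaving out the library near WT and do not test the split. The mitochondrial carrier genes *SLC25A25* and *ucp3* were also highest in mutants 1 and 2, with 55.2, 71.3 and 18.7 CPM in mutants against 6.22, 16.2 and 10.5 CPM in WT (log2 fold change 2.14, SE 0.50, adjusted p = 0.0773) and 123, 102 and 23.4 CPM in mutants against 15.0, 30.1 and 23.3 CPM in WT (log2 fold change 1.86, SE 0.54, adjusted p = 0.109). The uncoupling protein gene *UCP2* had 733, 783 and 286 CPM in mutants against 209, 301 and 249 CPM in WT. Of 61 SLC25 genes none was called with edgeR, 17 were higher and 3 lower at an unadjusted p under 0.05, and DESeq2 called 7 and 2.

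In the circadian clock list of 35 genes, 1 was called (*cry3b*, above), 12 had all mutants above WT and 10 had only mutants 1 and 2 above. Medians by library were 0.35, 0.52 and -0.10 in mutant libraries 1 to 3, against 0.00, 0.00 and -0.03 in WT libraries 1 to 3, and the median log2 fold change was 0.28 (0.15 without mutant library 2). *cry5*, a photolyase of the cryptochrome family, had 57.7, 53.1 and 59.8 CPM in the mutant libraries, against 20.8, 26.9 and 35.0 CPM in the WT libraries (log2 fold change 1.04, SE 0.19, adjusted p = 0.0580), and *per2*, a period gene, had 286, 289 and 267 CPM in the mutant libraries, against 90.9, 163 and 234 CPM in the WT libraries (log2 fold change 0.79, SE 0.30, adjusted p = 0.177). Both lay above WT in all 3 mutants without passing the threshold. *nr1d2a*, a Rev-erb repressor, instead had 128, 167 and 61.1 CPM in mutants against 52.3, 79.7 and 56.6 CPM in WT, with mutant 3 inside the WT range. Time of day at collection is not given in the sources used here.

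**Figure D4:**
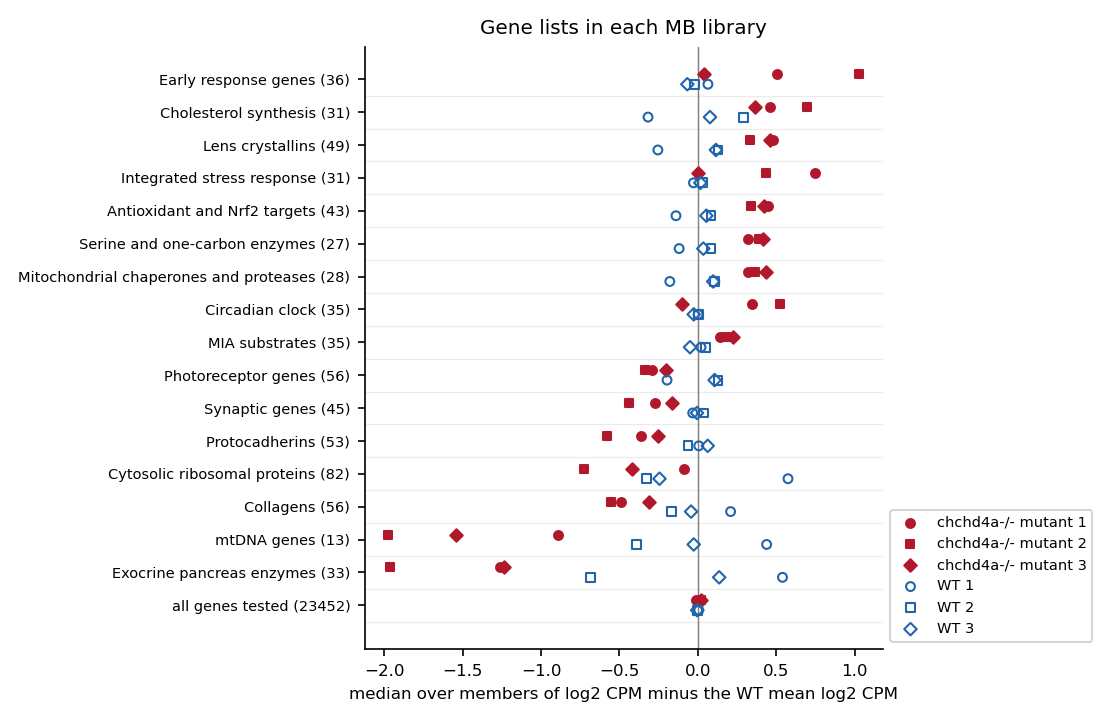
For each gene list (number of tested genes in brackets), the median over its genes of log2 CPM minus the mean log2 CPM of the WT libraries, with 1 point for each MB library. For the integrated stress response mutants 1 to 3 sit at 0.75, 0.44 and 0.00 and WT 1 to 3 at -0.03, 0.03 and 0.02, while for the exocrine pancreas mutants sit at -1.26, -1.96 and -1.24 and WT at 0.54, -0.68 and 0.14.

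Enzymes of serine and one-carbon metabolism, which supply glycine and formate partly inside mitochondria, lay above WT in all 3 mutants. Of 27 genes 25 had a log2 fold change above 0, 15 did not overlap on that side and 0 on the other. With edgeR 0 were called, 12 were higher at an unadjusted p under 0.05, and DESeq2 called 8 higher. The median was 0.36, or 0.36 without WT library 1 and 0.33 without mutant library 3. *psat1*, of serine synthesis, had 34.8, 34.4 and 36.1 CPM in the mutant libraries, against 23.8, 22.2 and 22.2 CPM in the WT libraries (log2 fold change 0.63, SE 0.11, adjusted p = 0.0560). *mthfd1l*, the mitochondrial formate-releasing enzyme, had 33.3, 52.0 and 16.3 CPM in the mutant libraries, against 7.82, 15.6 and 13.3 CPM in the WT libraries (log2 fold change 1.47, SE 0.41, adjusted p = 0.101), and *shmt2* had 25.1, 43.3 and 28.9 CPM in the mutant libraries, against 23.2, 18.9 and 18.5 CPM in the WT libraries (log2 fold change 0.68, SE 0.21, adjusted p = 0.122). The spread in mutants was wide for *mthfd1l* and narrow for *psat1*. Of 25 cytosolic tRNA synthetase genes *nars1* (ENSDARG00000061100), which charges asparagine tRNA, was called, with 162, 141 and 136 CPM in the mutant libraries, against 68.2, 74.7 and 66.6 CPM in the WT libraries (log2 fold change 1.07, SE 0.13, adjusted p = 0.0285), every mutant library above every WT library. In all, 14 genes of the list lay above WT in every mutant library, the list's median being 0.22, and *RARS1* had 65.1, 58.3 and 65.9 CPM in mutants against 48.3, 51.2 and 49.7 CPM in WT (0.34). The 15 mitochondrial synthetases had a median of -0.07 (-0.15 without WT library 1 and -0.14 without mutant library 3), with none called by either edgeR or DESeq2 and 1 at an unadjusted p under 0.05, *LARS2* for leucine, with 7.14, 6.60 and 6.71 CPM in mutants against 3.70, 5.22 and 5.53 CPM in WT (log2 fold change 0.50, SE 0.19, adjusted p = 0.171).

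Mitochondrial chaperones and proteases, which fold or degrade proteins after import, were above WT as a group. Of 28 genes 27 had a log2 fold change above 0 and 18 did not overlap with WT; edgeR called 0, with 13 higher at an unadjusted p under 0.05, and DESeq2 called 6 higher. The median was 0.36, or 0.24 without WT library 1 and 0.32 without mutant library 3. *YME1L1* (ENSDARG00000075192), the protease that faces the IMS, had 17.4, 19.6 and 14.6 CPM in the mutant libraries, against 10.8, 10.8 and 9.95 CPM in the WT libraries (log2 fold change 0.71, SE 0.15, adjusted p = 0.0657). *hspa9*, the matrix Hsp70, had 168, 177 and 160.2 CPM in the mutant libraries, against 83.9, 134 and 127 CPM in the WT libraries (log2 fold change 0.55, SE 0.19, adjusted p = 0.148), with WT library 1 the lowest. Antioxidant and Nrf2 target genes held 1 call, *SQSTM1* above. In 24 of 43 every mutant was above every WT library, and in 3 every mutant was below (median 0.37, 0.31 without WT library 1 and 0.32 without mutant library 3). At an unadjusted p under 0.05, 20 were higher and 3 lower. The members named here are all higher ones. *prdx1*, a peroxiredoxin, had 211, 157 and 176 CPM in the mutant libraries, against 30.1, 59.7 and 67.2 CPM in the WT libraries (log2 fold change 1.79, SE 0.29, adjusted p = 0.0515). *gstp1*, a glutathione transferase and Nrf2 target in zebrafish, had 604, 481 and 557 CPM in the mutant libraries, against 175, 258 and 266 CPM in the WT libraries (log2 fold change 1.23, SE 0.20, adjusted p = 0.0535), and *NQO1* had 112, 122 and 98.0 CPM in the mutant libraries, against 35.3, 69.8 and 64.7 CPM in the WT libraries (log2 fold change 0.97, SE 0.24, adjusted p = 0.0865). Mutants overlapped WT in none of these 3, and WT library 1 was again the lowest. DESeq2 called 17 of the list higher and 2 lower.

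Genes of cholesterol synthesis had 27 of 31 members above 0 and 14 without overlap, with 0 called by edgeR, 15 higher at an unadjusted p under 0.05 and 7 called higher by DESeq2. The median was 0.48, or 0.34 without WT library 1 and 0.54 without mutant library 3. *hmgcs1*, of the mevalonate pathway, had 112, 166 and 115 CPM in the mutant libraries, against 41.2, 79.4 and 62.4 CPM in the WT libraries (log2 fold change 1.1, SE 0.26, adjusted p = 0.0771), and *FDPS*, which makes farnesyl diphosphate, had 45.1, 60.7 and 54.0 CPM in the mutant libraries, against 23.2, 35.6 and 29.4 CPM in the WT libraries (log2 fold change 0.86, SE 0.18, adjusted p = 0.0684). For both, WT library 1 was the lowest of all. The nuclear genes of complex I of the respiratory chain had a median of 0.16 (0.09 without mutant library 3) over 41 genes, those of complexes II to V 0.19 over 56, and those of the citrate cycle and pyruvate 0.25 (0.15 without WT library 1) over 32. In these lists 14, 26 and 17 genes lay above WT in every mutant library, and no gene was called by edgeR (8, 11 and 9 higher at an unadjusted p under 0.05, and 2, 4 and 4 called higher by DESeq2). Of complex I, 3 genes lay below WT without overlap, 2 were lower at an unadjusted p under 0.05 and DESeq2 called 2 lower, while in the other lists edgeR at that p and DESeq2 gave 0 lower genes. *NDUFA12*, of complex I, had 60.7, 67.8 and 68.3 CPM in mutants against 38.7, 51.7 and 48.2 CPM in WT (log2 fold change 0.51, SE 0.14, adjusted p = 0.101), and *COX5B* (ENSDARG00000068738), of complex IV, had 16.4, 15.8 and 17 CPM in mutants against 9.37, 10.7 and 10.2 CPM in WT (log2 fold change 0.70, SE 0.12, adjusted p = 0.0571). *SDHB*, of complex II, had 169.9, 166 and 174 CPM in the mutant libraries, against 95.5, 121 and 116 CPM in the WT libraries (log2 fold change 0.62, SE 0.14, adjusted p = 0.0738). The import channel genes (TOM and TIM) had a median of 0.09 and the mitochondrial ribosomal protein genes 0.06 (0.04 without WT library 3, 0.10 without mutant library 1 and 0.01 without mutant library 3). *samm50*, of the outer membrane assembly machinery, had 40.2, 41.3 and 44.5 CPM in mutants against 26.1, 33.6 and 33.3 CPM in WT (log2 fold change 0.44, SE 0.14, adjusted p = 0.122), and *mrpl58*, a release factor of the mitochondrial ribosome, lay lower with 1.62, 1.13 and 1.4 CPM in mutants against 3.55, 2.22 and 2.17 CPM in WT (log2 fold change -0.95, SE 0.26, adjusted p = 0.0977).

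Tissue genes other than those of the pancreas went both ways. Crystallins of the lens lay above WT, 33 of 49 without overlap and 1 below, with none called by edgeR, 26 higher at an unadjusted p under 0.05 and 18 called higher by DESeq2. Their median was 0.45, or 0.32 without WT library 1 and 0.40 without mutant library 3, and they took 2.25%, 2.42% and 2.44% of gene counts in mutants and 0.974%, 1.58% and 1.5% in WT. Log2 fold changes were above 0 in 43 of the 49 genes and below 0 in 6. The gene with the smallest p was the only one below WT without overlap, *CRYAB* (ENSDARG00000101380), an alpha B crystallin copy. It had 0.241, 0.193 and 0.377 CPM in mutants against 1.6, 0.661 and 1.1 CPM in WT (log2 fold change -2.03, SE 0.40, adjusted p = 0.0657). *CRYAA*, the alpha A crystallin chaperone, had 56.7, 67.1 and 57.0 CPM in the mutant libraries, against 23.5, 38.0 and 36.7 CPM in the WT libraries (log2 fold change 0.88, SE 0.19, adjusted p = 0.0704). Many crystallin genes are close copies, and the split of reads between them is uncertain. Photoreceptor genes had the 2 calls given above (*cnga3b*, *CNGA3*) and 23 of 56 below WT without overlap, 9 above. Their median was -0.34, and 21 were above 0. At an unadjusted p under 0.05, 6 were higher and 24 lower, and DESeq2 called 3 and 17. The members named here are all lower ones. The 8 tested genes of the photoreceptor markers had a median of -0.11 and none called. Their summed CPM were 3372, 2957 and 3104 in mutants, against 3188, 4008 and 4184 in WT. The blue cone opsin *opn1sw2* had 183, 132 and 229.7 CPM in the mutant libraries, against 329, 399 and 410.4 CPM in the WT libraries (log2 fold change -1.06, SE 0.22, adjusted p = 0.0659) and the ultraviolet cone opsin *opn1sw1* 777, 629 and 946 CPM in the mutant libraries, against 1312, 1917 and 2042 CPM in the WT libraries (log2 fold change -1.16, SE 0.25, adjusted p = 0.0684). Both genotypes stayed apart, with mutant library 2 the lowest in both.

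Synaptic genes, with *sv2a* and *SLC32A1* called, had 16 of 45 members below WT without overlap and 3 above (median -0.35, -0.21 without WT library 1 and -0.37 without mutant library 3). *nrxn1a*, a presynaptic adhesion molecule, had 88.9, 69.2 and 93.6 CPM in the mutant libraries, against 214, 165 and 166 CPM in the WT libraries (log2 fold change -1.11, SE 0.17, adjusted p = 0.0515), whereas *syn2b*, a synapsin, lay above WT with 37.1, 50.2 and 35.8 CPM in the mutant libraries, against 21.4, 23.4 and 23.8 CPM in the WT libraries (log2 fold change 0.84, SE 0.15, adjusted p = 0.0602). The list's median in HS was -0.99, with 25 of its 45 genes below WT in every mutant library (17.1% of all genes in HS). Collagens lay lower in 53 of 56 genes, 36 without overlap, with 0 called by edgeR, 31 lower at an unadjusted p under 0.05 and 21 called lower by DESeq2. The median was -0.47, or -0.37 without WT library 1 and -0.54 without mutant library 3, and -1.07 in HS. The basement membrane gene *COL4A1* had 35.7, 38.1 and 38.3 CPM in the mutant libraries, against 206, 85.7 and 95.2 CPM in the WT libraries (log2 fold change -1.79, SE 0.32, adjusted p = 0.0571), and *col7a1*, of the skin anchoring fibrils, had 29.7, 22.1 and 45.4 CPM in the mutant libraries, against 218, 76.3 and 82.2 CPM in the WT libraries (log2 fold change -1.95, SE 0.44, adjusted p = 0.0738). In both, WT library 1 was the highest of all. Protocadherins, neuronal adhesion genes in clusters of near-identical copies, had 23 of 53 below and 1 above without overlap, with a median of -0.37 in MB and -0.87 in HS. None was called by edgeR, 24 had an unadjusted p under 0.05, all lower, and DESeq2 called 12 lower. *pcdh1gc6* had 7.07, 5.41 and 7.49 CPM in the mutant libraries, against 14.2, 12.7 and 13 CPM in the WT libraries (log2 fold change -1.0, SE 0.16, adjusted p = 0.0515).

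For cytosolic ribosomal proteins the median rested on WT library 1. It was -0.45 over 82 genes with all libraries and -0.11 without WT library 1. No gene of the list had every mutant library on one side of every WT library. In 71 genes (86.6%, against 4.45% of all genes) mutants 2 and 3 were below WT while mutant 1 was not. Medians by library were -0.09, -0.72 and -0.42 in mutant libraries 1 to 3, against 0.57, -0.33 and -0.24 in WT libraries 1 to 3. *RPS29* had 298, 176 and 211 CPM in the mutant libraries, against 539.7, 271 and 297 CPM in the WT libraries (log2 fold change -0.69, SE 0.30, adjusted p = 0.228). In HS the median was 0.42 and 47 genes lay above WT in every mutant library (16.3% of all genes in HS). No gene of this list was called in MB with edgeR or DESeq2, and 0 of its genes had an unadjusted p under 0.05 with edgeR.

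Most remaining lists stayed near 0. Medians were 0.01 (-0.10 to 0.09 without single libraries, on the other side of 0 without WT library 2, mutant library 1 or mutant library 3) for sarcomere genes, 0.00 (-0.09 to 0.07 without single libraries, on the other side of 0 without WT library 1, mutant library 1 or mutant library 3) for 360 solute carriers outside SLC25, 0.10 (0.00 without WT library 1 and 0.20 without WT library 3) for ABC transporters, 0.17 (0.09 without mutant library 1) for glycolysis, 0.17 (0.09 without mutant library 3) for the proteasome, 0.11 for cytosolic heat shock proteins, 0.24 (0.11 without WT library 1 and 0.13 without mutant library 3) for cytochrome P450 genes and -0.06 (-0.21 to 0.15 without single libraries, on the other side of 0 without WT library 2, mutant library 2 or mutant library 3) for immune genes. Epidermal keratins (-0.35 (-0.16 without WT library 1)) and fin fold, cartilage and bone genes (-0.29 (-0.44 without mutant library 3)) had medians below 0 and hemoglobins (0.57 (0.24 without mutant library 1 and 0.33 without mutant library 3), 7 genes) one above, with none called by edgeR, 4, 10 and 2 at an unadjusted p under 0.05 in those directions, and 3, 5 and 1 called by DESeq2. *hbae3*, an embryonic globin, had 289.9, 208 and 344 CPM in mutants against 162, 195 and 153 CPM in WT (log2 fold change 0.72, SE 0.21, adjusted p = 0.106), *col5a2b*, of fibrillar collagen V, had 5.63, 6.56 and 8.01 CPM in mutants against 13.1, 8.72 and 10.3 CPM in WT (log2 fold change -0.67, SE 0.20, adjusted p = 0.117), and *krt15* had 168, 159 and 202 CPM in the mutant libraries, against 619.9, 394 and 353 CPM in the WT libraries (log2 fold change -1.37, SE 0.24, adjusted p = 0.0568). Among solute carriers 3 were called lower, including *SLC32A1* (above) and *SLC4A5*, a bicarbonate cotransporter (ENSDARG00000002771; log2 fold change -0.92, SE 0.14, adjusted p = 0.0472). Among cytochromes, *cyp17a2* had 1.38, 1.95 and 1.29 CPM in the mutant libraries, against 0.336, 0.604 and 0.484 CPM in the WT libraries (log2 fold change 1.70, SE 0.29, adjusted p = 0.0560), and *CYP1A1*, a target of the aryl hydrocarbon receptor, had 201, 58.2 and 215 CPM in the mutant libraries, against 26.0, 55.2 and 62.4 CPM in the WT libraries, mutant 2 being within the WT range. The gene with the smallest p was *PKM* (ENSDARG00000099730), pyruvate kinase, in glycolysis (log2 fold change 0.70, SE 0.17, adjusted p = 0.0773), *psme2*, a proteasome activator subunit, among proteasome genes (log2 fold change 0.95, SE 0.25, adjusted p = 0.0917), and *myha*, a myosin heavy chain, among sarcomere genes (log2 fold change -0.87, SE 0.24, adjusted p = 0.103). Relative to the shift in all genes, a list's median kept its sign under each scaling apart from the apolipoprotein, gut brush border and sarcomere lists. Removing the shift made this likely, so it does not test the scaling. Before that shift, with spike-in totals, only the mtDNA (-0.32) and exocrine (-0.37) lists were below 0.

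**Figure D5:**
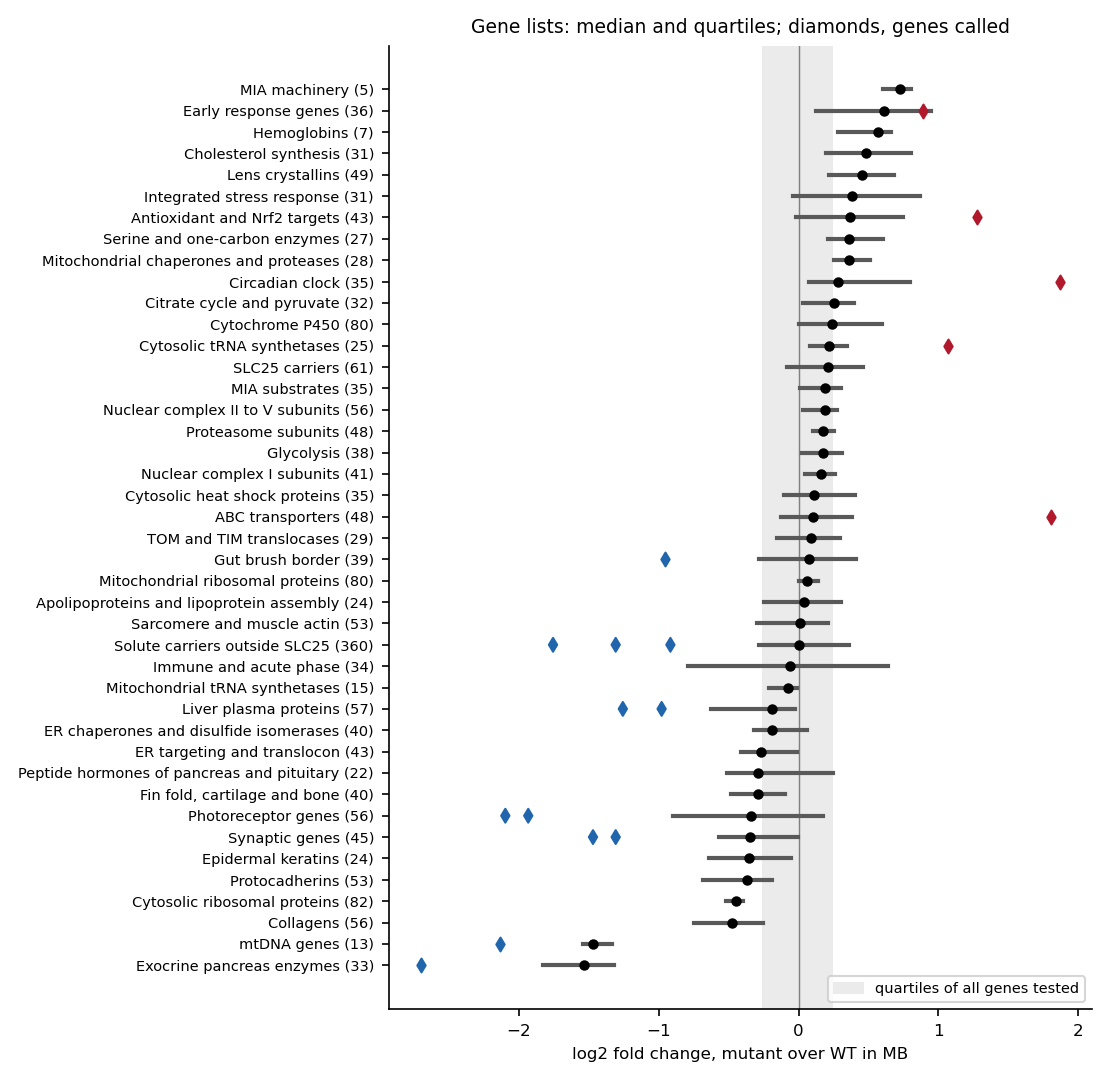
Log2 fold change (mutant over WT in MB, TMM scaling) of each gene list: the point is the median, the bar runs between the quartiles, diamonds are genes called at an adjusted p of at most 0.05, and the number of tested genes is in brackets. The exocrine pancreas (-1.53) and mtDNA (-1.47) lists lie lowest; medians of the apolipoprotein, gut and sarcomere lists, all near 0, changed sign under another scaling, taken relative to all genes.

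The HS fraction of the same genotypes shared no library with the MB comparison, but both pellets were spun from the same homogenates, so the fractions share larvae. Of the 27 genes called higher in MB, 25 had a log2 fold change above 0 in HS, and of the 46 called lower, all 46 were below 0 (medians 0.99 and -1.86). In 54 of the 73 genes no mutant HS library overlapped a WT HS library on the same side, 16 of them higher and 38 lower, where 16.3% of all genes lay above and 17.1% below in HS. No gene was called in HS alone with edgeR (2291 higher, or 9.77%, and 3378 lower, or 14.4%, at an unadjusted p under 0.05, smallest adjusted p = 0.0546; DESeq2 called 1044 higher and 2277 lower). The test of the difference between fractions called no gene with edgeR (3374 at an unadjusted p under 0.05, smallest adjusted p = 0.0560; DESeq2 called 563 above and 233 below 0). That fit treats the libraries as independent, although MB and HS came from the same homogenates; with replicate within genotype as a block, edgeR called 691 genes above and 105 below 0 for the interaction. Among the 73 genes, 17 had an unadjusted interaction p under 0.05, and the smallest adjusted p was 0.172. Of all genes, 8.37% lay above 0 and 6.01% below at that unadjusted p. *ABCB6* (ENSDARG00000063297) had a log2 fold change of 1.80 in MB and 0.37 in HS, *ces2b* (ENSDARG00000101726) 1.52 and 0.21, and *vwa11* 1.36 and -0.40. *ctsll* had 4.05 and 3.46, and *cbln8* -2.75 and -2.15. These examples all changed more in MB, but 28 of the 46 genes called lower fell more in HS. Among those was *phldb1b*, with -0.98 in MB and -2.68 in HS, which had the smallest interaction adjusted p of the 73. The spread between libraries was larger in HS, with a common dispersion of 0.132 against 0.0407 in MB.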

How the data were processed

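Stranded poly(A)-captured libraries with added ERCC spike-in RNA were made from MB and HS pellets of 5 dpf larvae and sequenced as paired ends. The authors quantified reads with Salmon 1.4.0 and deposited expected counts per Ensembl gene and per spike-in, mutant and WT libraries in separate unnormalized tables (danRer11, Ensembl annotation, per the study's methods). Of the deposited expected counts 30.5% were not whole numbers, and all were rounded. The strand setting of the counting and the spike-in mix of each library are not given in the sources used here. Tables were joined by Ensembl ID (31778 genes, 92 spike-ins). Symbols came from the study's supplement for 6469 genes and from a RefSeq-based gene table for 22682, with 2627 having none, and are written as those tables have them, so human-style capitals mark symbols transferred to zebrafish genes.

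The MB comparison used edgeR 4.0.16 (R 4.3.3): TMM factors, prior count 0.125, quasi-likelihood F test, two-sided, Benjamini-Hochberg adjustment over 23452 genes with more than 50 counts in each genotype's 6 libraries. CPM were computed with edgeR from gene counts with library sizes scaled by TMM factors. HS libraries alone, and all 12 for the genotype by fraction interaction (fitted with libraries as independent), were treated alike. Steps were tested on simulated data. Alternatives were DESeq2 1.42.0, other scalings, filters, prior count, threshold, a replicate block and leaving out each library. Named genes were *chchd4a* and *chchd4b*, in each direction the 12 largest changes among genes called at 2-fold or more with over 1000 MB counts, a symbol and no overlap between genotypes, and in each of 42 gene lists up to 4 called genes in each direction or, with none called, the gene with the smallest p. Of these, 1 gene is not reported here. Other genes were named after their values were seen. The members, gene lists and tests were chosen with earlier results of these data known. Gene lengths were not used, so levels are not compared between genes. A planned search of promoter motifs was not run because no sequence was used here. Exact permutation tests used scipy 1.17.1, tables pandas 2.3.3 and numpy 2.4.6, and figures matplotlib 3.10.9 (Python 3.11.15).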

Additional observations from a re-analysis of the deposited data

How the results depend on the processing

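Calls in MB (27 higher and 46 lower genes, 22 and 41 at 2-fold or more) depended on the settings, and the cause was not tested. DESeq2 called 1059 higher and 1315 lower (329 and 480 at 2-fold), library totals 863 and 194 (566 and 147), spike-in totals 113 and 3 (113 and 3), no filter on low counts 108 and 175 (83 and 144), and a fit of all 12 libraries 3 and 6 (3 and 6). An adjusted p of at most 0.01 left 1 and 0 (1 and 0), *ogfr2* being the gene. A minimum of 10 counts in every MB library gave 39 and 71 (32 and 59). TMM without the mtDNA genes and a prior count of 2 called the same 73 genes. Of the 73 genes, DESeq2 shared 73, library totals 69, spike-in totals 13, no filter 73, the minimum of 10 counts 71 and the fit of all libraries 9. Leaving out single libraries gave 0 to 286 higher and 0 to 197 lower genes in MB (0 to 222 and 0 to 152 at 2-fold). In HS it gave 0 to 151 and 0 to 1490 where all libraries gave 0 and 0, and for the interaction 0 to 12 and 0 to 2 where all gave 0 and 0. DESeq2 called 1044 higher and 2277 lower genes in HS, and 563 and 233 for the interaction.

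With the replicate number as a block, 102 higher and 265 lower genes were called in MB (87 and 218 at 2-fold), 70 of the 73 among them, with 103 and 773 in HS and, blocked by replicate within genotype, 691 and 105 for the interaction. The replicate block pairs libraries that share only a number: deviations of same-numbered MB libraries correlated at 0.044, -0.105 and 0.175, and of the mutants, libraries 1 and 3 but not 2 correlated best with the WT library of their own number. Over 64 named genes and their alternatives, 960 values in all, 705 kept direction and side of the threshold, 172 lost the call, 83 gained one and 0 turned direction. Direction here is relative to the shift in all genes. Before that shift, 6 of the 46 genes called lower were above 0 with spike-in totals. Among list medians, the value for ABC transporters, median log2 fold change relative to all genes, lay between -0.015 and 0.197 when single libraries were left out, below 0 without WT library 1. By the tolerance used for medians, 1 SD of the list's median among the 3 mutant libraries, 34 other values moved and 595 did not, and a change of sign was counted as a reversal only where the median exceeded that SD. By sign alone, the medians relative to all genes of 6 lists changed sign without some library (ABC transporters, apolipoproteins, gut brush border, immune, sarcomere and solute carriers). The mtDNA share differed by -9.07 to -6.11 percentage points and the spike-in share by -3.00 to -0.835 when single libraries were left out. The shallowest MB library held 45621399 gene counts. Clutch and genotype cannot be told apart in these data.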
